A study of Mus musculus with 3 samples.

Results

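Interferon-state cells were taken as cells that carried at least 1 unique molecular identifier (UMI, the tag that marks an original RNA molecule) of 4 or more of the 6 genes Ifit1, Ifit2, Ifit3, Rsad2, Isg15 and Cxcl10. They were thus selected on their measured counts of these 6 genes. Barcodes entered when 500 or more genes were detected and mitochondrial genes gave 10% of UMIs or less. There were 684 such cells among 16021 kept cells, which is 4.27%. They numbered 100 of 4457 cells in knockout library 4, 179 of 4115 cells in control library 1 and 405 of 7449 cells in control library 3. All other kept cells of the same library, 15337 in all, served as the comparison and are called other cells.

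The cells were monocytes, sorted as Ly6C-high from the livers of male C57BL/6 mice aged 8 weeks, 24 h after an intraperitoneal dose of 300 mg/kg acetaminophen. The mice had been fasted for 12 h, and chow was returned after 2 h. The single knockout library, numbered 4, came from LysM-Cre mice, in which Cre recombinase is expressed from the Lyz2 locus in myeloid cells and deletes the floxed Commd10 gene there. The 2 control libraries, numbered 1 and 3, came from Commd10fl/fl mice, in which the same allele is floxed but not deleted. All groups thus carried the floxed allele and all received acetaminophen. The libraries held 30302932 UMIs (knockout 4), 40092348 UMIs (control 1) and 72867668 UMIs (control 3). Kept cells shared 2 barcodes between knockout 4 and control 1, 19 between knockout 4 and control 3 and 8 between the controls, and 1 cell of each pair's shared barcodes was in the interferon state. Whether a library was 1 mouse or a pool is not stated, so spread between these particular libraries could be technical. In the genotype and interaction tests the spread was pooled over genes. Errors and p-values of those tests thus do not follow how far a single gene varied between the controls.

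Type I interferons bind the IFNAR1 and IFNAR2 receptor chains and act through the kinases JAK1 and TYK2 on STAT proteins, among them STAT2, which join IRF9 and bind interferon-stimulated response elements in the promoters of target genes. Cells make these interferons after nucleic acids are sensed in the cytosol or in endosomes, and dying cells can be a source of such nucleic acids. The targets include proteins that bind viral RNA or block viral growth, the transcription factor IRF7 that raises further interferon production, and inhibitors such as USP18 that end the signal. Acetaminophen overdose kills hepatocytes, and monocytes enter the injured liver in large numbers.

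Promoters of the selecting genes are shown because promoters of interferon targets are known for such elements. On build GRCm38, Ifit2 (19:34550694-34576419), Ifit3 (19:34583531-34588731) and Ifit1 (19:34640871-34650009) are on the plus strand of chromosome 19, with Ifit1bl1 and Ifit3b between Ifit3 and Ifit1. Rsad2 (12:26442746-26456452), Isg15 (4:156199424-156200818) and Cxcl10 (5:92346638-92348889) are on minus strands. IFIT1, IFIT2 and IFIT3 bind viral RNA or assemble with each other, RSAD2 (viperin) makes a nucleotide that stops viral RNA synthesis, ISG15 is a ubiquitin-like tag, and CXCL10 is a chemokine that attracts CXCR3-bearing lymphocytes. The motif GAAANNGAAA was searched on both strands from 250 bases before to 50 bases after each RefSeq gene start (GRCm38.p6). It was present in 1131 of 32851 such windows of all genes (3.44%) and in windows of 5 of the 6 selecting genes. Neither of the 2 Ifit2 windows held these letters. Windows of 4 of the genes follow, at chr19:34640639-34640938 (plus strand) for Ifit1, chr12:26456403-26456702 (minus strand) for Rsad2, chr4:156200769-156201068 (minus strand) for Isg15 and chr5:92348840-92349139 (minus strand) for Cxcl10. They run 5′ to 3′ along the gene's strand, and capitals mark motif matches on either strand. The 3 Isg15 matches overlap each other at their ends.
Ifit1: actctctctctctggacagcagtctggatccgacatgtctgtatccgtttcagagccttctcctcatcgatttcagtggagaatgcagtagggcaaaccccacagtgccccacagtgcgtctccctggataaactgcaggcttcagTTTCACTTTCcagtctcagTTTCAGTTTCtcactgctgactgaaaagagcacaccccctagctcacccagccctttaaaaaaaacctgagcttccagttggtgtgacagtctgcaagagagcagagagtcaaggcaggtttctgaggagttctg
Rsad2: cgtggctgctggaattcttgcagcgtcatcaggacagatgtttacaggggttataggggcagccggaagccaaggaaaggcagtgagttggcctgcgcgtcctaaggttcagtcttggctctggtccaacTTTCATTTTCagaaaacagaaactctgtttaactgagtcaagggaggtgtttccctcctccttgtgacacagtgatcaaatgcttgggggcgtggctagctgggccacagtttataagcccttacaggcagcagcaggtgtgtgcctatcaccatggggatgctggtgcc
Isg15: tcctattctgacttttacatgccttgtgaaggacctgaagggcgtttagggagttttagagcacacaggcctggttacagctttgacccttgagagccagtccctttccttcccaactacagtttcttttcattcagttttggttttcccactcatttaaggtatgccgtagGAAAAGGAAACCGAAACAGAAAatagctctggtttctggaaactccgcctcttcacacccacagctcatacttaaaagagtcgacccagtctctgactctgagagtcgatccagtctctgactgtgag
Cxcl10: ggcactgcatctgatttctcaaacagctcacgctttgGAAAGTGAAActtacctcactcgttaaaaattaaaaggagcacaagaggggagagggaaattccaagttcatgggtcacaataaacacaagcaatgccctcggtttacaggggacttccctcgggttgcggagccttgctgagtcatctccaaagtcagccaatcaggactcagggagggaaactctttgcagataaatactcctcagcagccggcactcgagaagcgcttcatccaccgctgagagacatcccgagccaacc
The matches start 104 and 85 bases before the Ifit1 start, 120 before Rsad2, 78, 72 and 66 before Isg15, and 213 before Cxcl10. Ifit3 held 2 matches, 156 and 122 bases before its start. A match describes letters in the window and is not a measured site.

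Interferon-state cells made up 2.24% of knockout 4 cells (95% Clopper-Pearson interval 1.83 to 2.72), 4.35% of control 1 cells (3.75 to 5.02) and 5.44% of control 3 cells (4.93 to 5.98). The knockout interval did not overlap either control interval. The intervals cover counting error only, and 1 library against 2 cannot give a permutation p below 0.05, so shares are given without a test. The rule depends on how many UMIs a cell has: the median was 8112 UMIs in interferon-state cells and 6831 in other cells of knockout 4, 11511 and 8691 in control 1, and 13514 and 8029 in control 3. Cells whose UMI count was more than 2 times the median of their library were 5.00% of interferon-state cells and 2.39% of other cells in knockout 4, 28.5% and 7.39% in control 1, and 39.8% and 9.40% in control 3.

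When every cell was thinned to 3000 UMIs, and 757 shallower cells of knockout 4, 527 of control 1 and 713 of control 3 were left out, the shares were 1.32% in knockout 4 (0.981 to 1.75), 1.23% in control 1 (0.892 to 1.64) and 1.51% in control 3 (1.24 to 1.84). These 3 intervals overlap. At 5000 UMIs the shares were 1.88% in knockout 4, 2.13% in control 1 and 2.49% in control 3, and at 2000 UMIs they were 1.01%, 0.969% and 0.900% in the same libraries. At 3000 and 2000 UMIs knockout 4 thus did not lie below both controls.

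**Figure D1:**
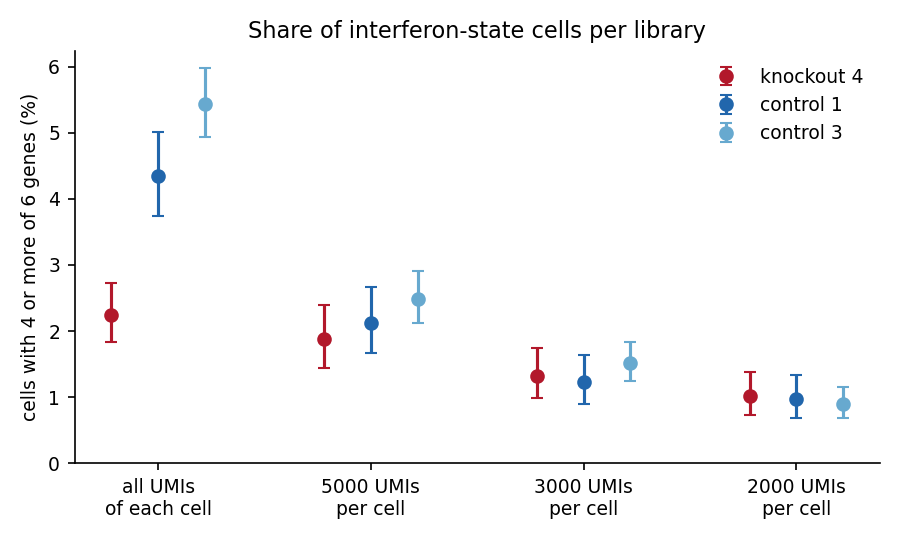
Share of cells with a UMI of 4 or more of the 6 selecting genes (vertical axis, percent) at full depth and with each cell thinned to 5000, 3000 or 2000 UMIs. Points are libraries and bars are 95% Clopper-Pearson intervals. At full depth knockout 4 (2.24%) lies below control 1 (4.35%) and control 3 (5.44%), and at 3000 UMIs the 3 libraries lie between 1.23% and 1.51%.

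Cells just inside and just outside the rule differed in degree. In cells with exactly 4 selecting genes, Ifit1 stood at 254 CPM (UMIs per 1000000 UMIs) in knockout 4, 96.6 CPM in control 1 and 93.3 CPM in control 3. In cells with exactly 3, it stood at 122, 56.8 and 44.4 CPM in these libraries. Cells with all 6 genes numbered 20 of 4457 in knockout 4, 31 of 4115 in control 1 and 67 of 7449 in control 3.

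The selecting genes themselves differed as the rule makes them do, and their levels are a description with no test. Ifit1 was at 700 CPM in interferon-state cells and 12.4 CPM in other cells of knockout 4, 248 and 11.6 CPM in control 1, and 178 and 10.2 CPM in control 3. Ifit2 was at 293 and 2.58 CPM, 135 and 3.21 CPM, and 134 and 4.33 CPM, in the same order of cells and libraries. Ifit3 was at 432 and 5.63 CPM, 193 and 7.41 CPM, and 168 and 7.93 CPM. These 3 genes were at low levels outside the state in each library. Rsad2 was at 817 CPM in interferon-state cells and 17.5 CPM in other cells of knockout 4, 424 and 22.2 CPM in control 1, and 254 and 22.4 CPM in control 3. Isg15 was at 1293 and 132 CPM, 640 and 106 CPM, and 471 and 112 CPM. Cxcl10 was at 2003 and 30.6 CPM, 727 and 49.8 CPM, and 484 and 66.3 CPM. Of the 6 genes, Isg15 had the smallest ratio between the 2 kinds of cells in each library.

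Interferon-state cells held 2.89% of all UMIs of knockout 4, 6.81% of control 1 and 9.56% of control 3, but 45.5%, 46.1% and 44.6% of the UMIs of the 6 genes in these libraries. Per cell, the 6 genes together had 4 to 495 UMIs in knockout 4 (median 17), 4 to 370 in control 1 (median 14) and 4 to 429 in control 3 (median 16). The 6 genes thus spanned a wide range within each library. Cxcl10 was the most uneven by the share of its UMIs in the 5 highest cells. No Cxcl10 UMI was found in 50 of 100 interferon-state cells in knockout 4, 78 of 179 in control 1 and 194 of 405 in control 3. Ifit2 was missing from 78 cells in control 1 as well. The 5 highest cells held 51.9% of the Cxcl10 UMIs of interferon-state cells in knockout 4, 47.4% in control 1 and 22.0% in control 3. Isg15 was missing from 1 cell in knockout 4, 1 in control 1 and 5 in control 3.

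Free RNA in droplets can give single UMIs to cells that do not express a gene. Lymphocytes, defined here as cells with UMIs of at least 2 lymphocyte markers, had an Isg15 UMI in 12.5% of 16 cells in knockout 4, 37.8% of 37 in control 1 and 26.5% of 34 in control 3, at median depths of 2767, 3959 and 3155 UMIs. Over all kept cells these shares were 38.1%, 43.1% and 45.1%, at median depths of 6865, 8770 and 8160 UMIs. Lymphocytes can themselves respond to interferon, and the part of free RNA in single UMIs was not tested. Of these lymphocytes, 1 in control 1 and 1 in control 3 met the rule.

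Interferon-state cells with a Cxcl10 UMI differed in make-up from those without one. The macrophage maturation list, which holds the complement genes C1qa, C1qb and C1qc and the uptake receptors Axl and Mertk, summed to 7367 CPM in cells with Cxcl10 and 13565 CPM in cells without it in knockout 4, 7087 and 8371 CPM in control 1, and 7906 and 10124 CPM in control 3. The Ly6C-high monocyte list, with Ccr2, Vcan and Fn1, summed to 12140 and 7431 CPM in knockout 4, 9018 and 7415 CPM in control 1, and 11620 and 10444 CPM in control 3. Cells with Cxcl10 were thus lower in maturation genes and higher in monocyte genes in all 3 libraries. Cxcl9, the CXCR3 ligand usually raised by interferon gamma, was at 87.3 CPM in cells with Cxcl10 and listed at 0 in cells without it in control 1, and at 129 and 22.2 CPM in control 3. These splits use a gene of the rule, and no test was made.

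Antiviral genes that the rule did not use were higher in cells with more of the selecting genes, given here as a description. A list of antiviral effectors without the selecting genes was summed per cell at 3000 UMIs. In knockout 4 its median was 30333 CPM in cells with all 6 genes, 18333 CPM with 4 and 8667 CPM with 0. In control 1 it was 28333 CPM with all 6, 16333 CPM with 4 and 7667 CPM with 0. In control 3 it was 27833 CPM with all 6, 18000 CPM with 4 and 10000 CPM with 0. Cells with none of the selecting genes thus still carried transcripts of this list. Which genes made up the sum in those cells was not tested, so it does not measure a response there. At this depth the number of cells with all 6 genes was 8 in knockout 4 and 13 in control 1.

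**Figure D2:**
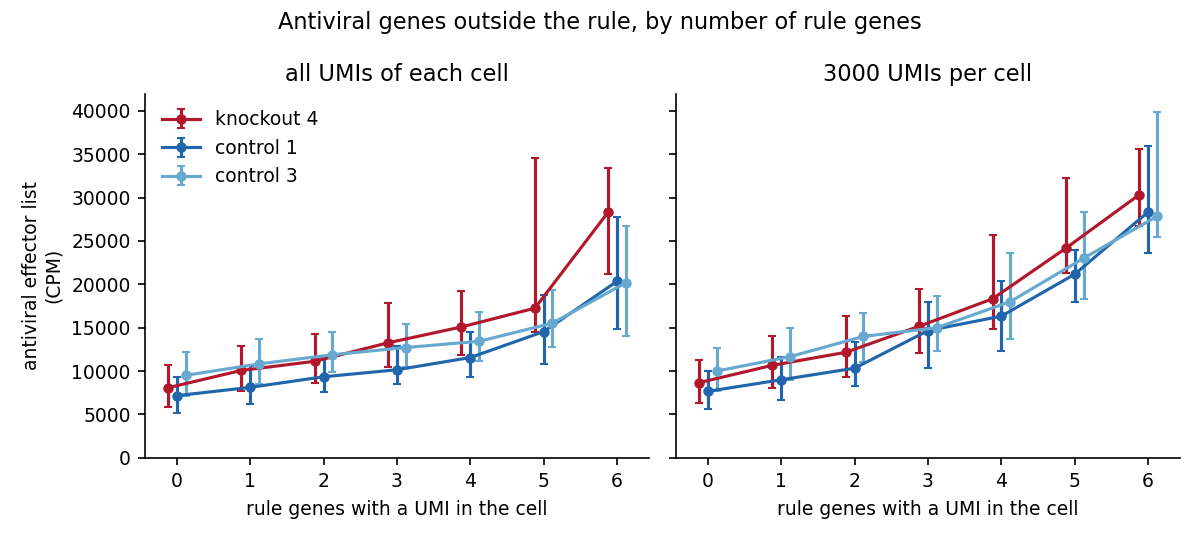
Summed level of the antiviral effector list per cell (vertical axis, CPM) by the number of selecting genes with a UMI, at full depth (left) and at 3000 UMIs per cell (right). Points are medians over cells of a library and bars run between the quartiles. At 3000 UMIs the medians climb to 30333 CPM in knockout 4, 28333 CPM in control 1 and 27833 CPM in control 3 at 6 genes.

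Beyond the selecting genes, interferon-state cells were higher than other cells in antiviral effectors, interferon-induced GTPases and macrophage maturation genes, and lower in neutrophil-like monocyte genes. UMIs were summed per library over interferon-state and over other cells, and the 2 sums of a library were compared with edgeR's quasi-likelihood test with the library as a block and Benjamini-Hochberg adjustment. Of 12638 genes tested outside the rule, 620 (4.91%) had an adjusted p under 0.05. Of these, 424 were higher (3.35%) and 196 lower (1.55%) in interferon-state cells, and 422 of the 424 and 193 of the 196 went the same way in all 3 libraries. Over 12644 genes, the selecting genes included, 2086 were higher and 2712 lower in all 3. The interferon lists contributed 89 of the 424 and 0 of the 196. Genes of these lists belong to the response the rule selects, so their counts are a description and carry no p here. Genes outside these lists can also belong to that response, and their p-values do not show a change apart from it. DESeq2 called 387 genes, 306 higher and 81 lower. With knockout 4 left out the count was 1059, without control 1 it was 409 and without control 3 it was 449.

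Genes for type I interferons were almost absent. The 17 listed ligand genes together had 0 UMIs in interferon-state cells of knockout 4, where 3 counts would be 3.50 CPM, 3 UMIs in control 1 and 2 UMIs in control 3. Those 5 UMIs were Ifnb1 in 4 cases and Ifnz in 1, and other cells held 2, 3 and 4 ligand UMIs in the same libraries.

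The receptor chains did not pass the threshold. Ifnar1 was at 139 and 152 CPM in interferon-state and other cells of knockout 4, 143 and 138 CPM in control 1, and 151 and 130 CPM in control 3 (log2 fold change 0.07 ± 0.08, SE). Ifnar2 had a log2 fold change of 0.05 ± 0.07. Of 10 receptor and JAK-STAT genes, 2 were higher and 0 lower. The transcription factor Stat2 was at 147 and 31.8 CPM in interferon-state and other cells of knockout 4, 87.2 and 30.9 CPM in control 1, and 90.4 and 36.0 CPM in control 3 (1.58 ± 0.11). Its partner Irf9 did not pass (0.26 ± 0.08).

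Nucleic acid sensors were higher in part. Of 18 tested, 7 were higher and 0 lower, with a list median of 0.25 on the log2 scale against -0.02 for all genes. The cytosolic RNA sensors Ifih1 (MDA5; 1.53 ± 0.13) and Ddx58 (RIG-I; 1.52 ± 0.11), their relative Dhx58 (1.01 ± 0.09), the Z-nucleic acid sensor Zbp1 (0.88 ± 0.09) and the DNA sensor cGAS, listed as Mb21d1 (0.86 ± 0.12), were among them. The adaptors Mavs (0.12 ± 0.13) and Tmem173 (STING; 0.15 ± 0.10) and the kinase Tbk1 (0.05 ± 0.09) did not pass. Of the endosomal receptors, Tlr3 was higher at a low level of at most 4.43 CPM (1.63 ± 0.34), and Tlr7 stood at 0.22 ± 0.09 and did not pass.

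Of 6 interferon regulatory factors, 3 were higher. Irf7 led with 559 and 108 CPM in interferon-state and other cells of knockout 4, 283 and 95.1 CPM in control 1, and 314 and 127 CPM in control 3 (1.72 ± 0.12). Irf1 followed at 0.70 ± 0.10 and Irf8, which DESeq2 did not call, at 0.26 ± 0.07. Irf3, which starts interferon transcription after sensing, was at -0.01 ± 0.10.

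Of 9 feedback genes, 6 were higher. Usp18, which displaces JAK1 from the receptor and removes ISG15 from proteins, was at 173 and 17.9 CPM in interferon-state and other cells of knockout 4, 96.1 and 18.1 CPM in control 1, and 78.8 and 21.4 CPM in control 3 (2.39 ± 0.16). Isg20, an RNA exonuclease, followed at 1.60 ± 0.16 and the JAK inhibitor Socs1 at 1.10 ± 0.11. Socs3 was at -0.12 ± 0.08 and did not pass.

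Listed antiviral effectors rose almost as a block: 57 of 60 were higher and 0 lower, with a median of 1.20 on the log2 scale. The largest differences were in Ifit1bl1 (5.93 ± 0.23) and Ifit3b (5.00 ± 0.22), which are close copies of Ifit1 and Ifit3. Reads could be shared with the selecting genes there, so both values are uncertain. Next came Ifi44, at 3.39, and Tnfsf10 (TRAIL, a death ligand), at 3.16. The oligoadenylate synthetase relative Oasl1 was at 164 and 11.5 CPM in interferon-state and other cells of knockout 4, 89.4 and 11.0 CPM in control 1, and 79.8 and 11.8 CPM in control 3 (3.11 ± 0.14). Mx1, a GTPase that blocks viral particles, was at 187 and 10.3 CPM in knockout 4, 82.0 and 13.8 CPM in control 1, and 74.3 and 16.4 CPM in control 3 (2.80 ± 0.21). In both genes the interferon-state cells of every library lay above the other cells of every library. Cmpk2, a neighbour of Rsad2 that feeds it with nucleotide, stood at 3.04 ± 0.22. Ifitm3 (0.11) and Hsh2d (1.20) did not pass. Ifitm1, the gene of an antiviral membrane protein, was outside this list and was lower at full depth (-0.73, adjusted p = 5.75e-05 by DESeq2). With every cell thinned to 3000 UMIs Ifitm1 stood at 0.0202.

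Genes usually raised most by interferon gamma also rose, with 15 of 16 higher and a median of 1.91 on the log2 scale. They are GTPases that attack pathogen vacuoles, and CXCR3 ligands. Gbp2 was at 80.7 and 11.5 CPM in interferon-state and other cells of knockout 4, 112 and 22.5 CPM in control 1, and 67.8 and 23.2 CPM in control 3 (2.05 ± 0.15). Ifi47 was at 2.09 ± 0.16 and Gbp5 at 2.39 ± 0.22. Cxcl9 was at 10.5 and 0.885 CPM in knockout 4, 49.9 and 20.6 CPM in control 1, and 84.1 and 21.7 CPM in control 3 (1.74 ± 0.15). Its level in knockout 4 stayed below the other cells of both controls. Ciita, the switch of MHC class II genes, stood at 0.44 ± 0.13 and did not pass by DESeq2 or at 3000 UMIs.

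**Figure D3:**
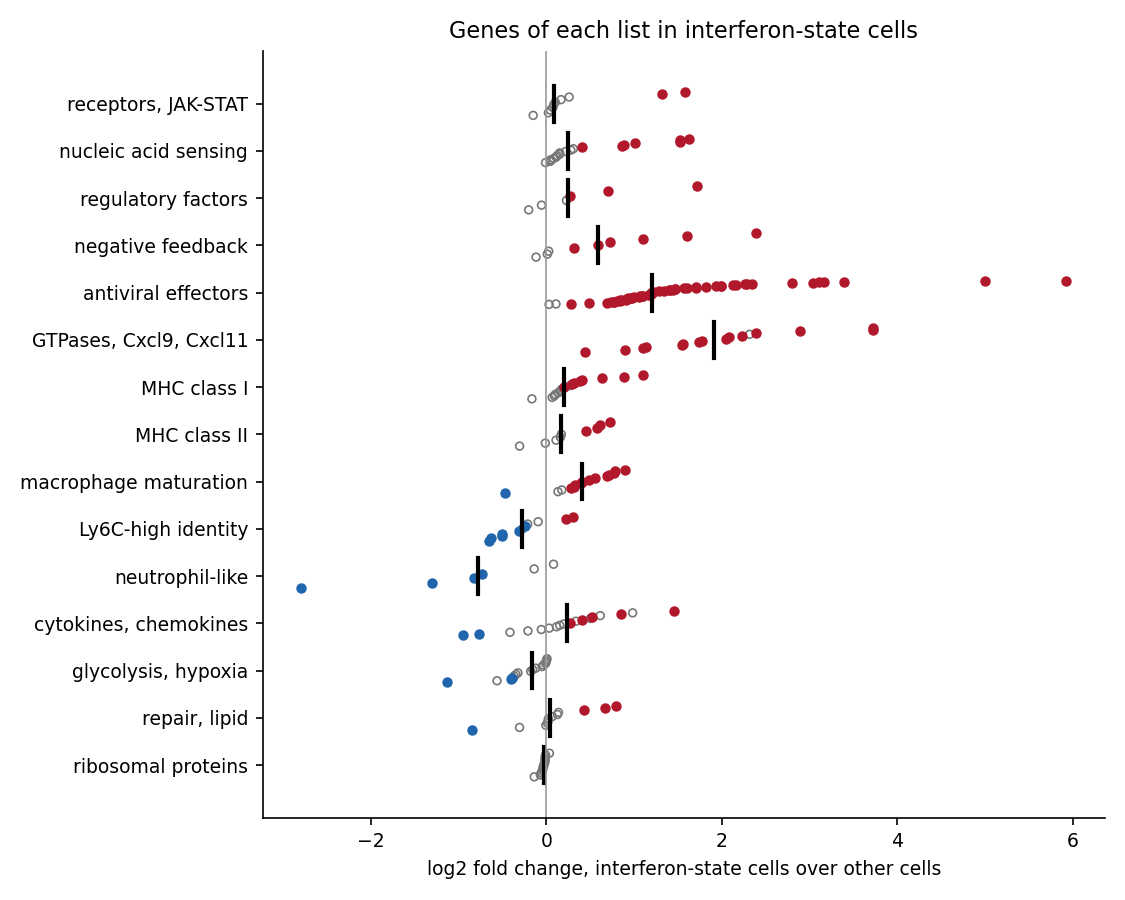
Log2 fold change of interferon-state over other cells (horizontal axis) for each tested gene of 15 lists. Filled red points passed an adjusted p under 0.05 and were higher, filled blue points passed and were lower, open points did not pass, and black bars are list medians. The antiviral effectors (57 of 60 higher, median 1.20) and the GTPases with Cxcl9 and Cxcl11 (15 of 16 higher, median 1.91) stand to the right, and the neutrophil-like genes (4 of 6 lower, median -0.78) to the left.

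Outside the interferon lists, 10 genes with the largest rises included Ifi206 (log2 2.59 ± 0.17), Mndal (1.49 ± 0.12) and Ifi203 (1.46 ± 0.11), all relatives of the listed Ifi200 genes. Such relatives can belong to the response the rule selects, so their values are a description. Ifi206 was at 114 and 10.4 CPM in interferon-state and other cells of knockout 4, 55.8 and 8.62 CPM in control 1, and 50.7 and 12.0 CPM in control 3. Others were the GTPase gene Gm12250 (1.64 ± 0.13), the surface marker Ly6a (1.59 ± 0.19) and Cd69 (1.504 ± 0.16). Cd69 is an early activation marker of lymphocytes that holds back tissue exit. Genes such as these can belong to the response as well. All of these were higher in 3 of 3 libraries. The remaining 4 were BC147527 (1.44 ± 0.14), Frmd4a (1.37 ± 0.14), Fam26f (1.31 ± 0.12) and Tpst1 (1.24 ± 0.20).

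Antigen presentation genes moved less. Of 17 MHC class I genes, 8 were higher and 0 lower, with a median of 0.20 on the log2 scale. Nlrc5, the switch of this pathway, led at 1.10 ± 0.16. Its levels were 35.1 and 9.42 CPM in interferon-state and other cells of knockout 4. They were 27.3 and 11.0 CPM in control 1, and 23.6 and 14.1 CPM in control 3. The immunoproteasome subunit Psmb9 stood at 0.64 ± 0.09. MHC class I genes can belong to the response the rule selects, so their values are a description. Of 9 MHC class II genes, 4 were higher, with H2-Eb1 at 0.73 ± 0.14, H2-Aa at 0.61 ± 0.12, H2-Ab1 at 0.58 ± 0.12 and the invariant chain Cd74 at 0.45 ± 0.09. At 3000 UMIs per cell, 0 of 9 class II genes passed in the same edgeR test, with H2-Aa at 0.30 (adjusted p = 0.145), and against other cells matched on total UMIs 5 of 8 were higher. Thinning also applied the rule again, which left 49 interferon-state cells in knockout 4, 44 in control 1 and 102 in control 3. DESeq2 called H2-Aa and H2-Ab1, but neither H2-Eb1 (adjusted p = 0.705) nor Cd74.

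Macrophage maturation genes were mostly higher, with 12 of 15 higher and 1 lower. Axl, a receptor for dying cells, is itself raised by interferon, so its values are a description. Axl was at 111 and 35.8 CPM in interferon-state and other cells of knockout 4, 115 and 71.9 CPM in control 1, and 84.9 and 49.96 CPM in control 3 (0.89 ± 0.11). Mertk, its relative, was at 0.78 ± 0.11 (adjusted p = 6.69e-05), the transcription factor Maf at 0.55 ± 0.06 (adjusted p = 1.83e-06) and Ms4a7 at 0.49 ± 0.07. All 4 were higher in 3 of 3 libraries, and Mertk missed the threshold at 3000 UMIs (adjusted p = 0.0609). The count was 7 of 15 at 3000 UMIs per cell, 6 of 15 against matched other cells and 8 of 15 by DESeq2.

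Ly6C-high monocyte genes moved both ways, with 2 higher and 6 lower of 11. The glutathione transferase Mgst1 (-0.63 ± 0.07, adjusted p = 4.19e-06), the haptoglobin gene Hp (-0.51 ± 0.06), the matrix genes Fn1 (-0.50 ± 0.07) and Vcan (-0.65 ± 0.10, adjusted p = 0.000135) fell. Vcan was at 174 and 392 CPM in interferon-state and other cells of knockout 4, 101 and 152 CPM in control 1, and 306 and 395 CPM in control 3. Ly6c2, the sorting antigen's gene, did not pass (-0.21 ± 0.07), and at 3000 UMIs per cell it passed as higher (0.48, adjusted p = 0.000377). Mgst1 did not pass at 3000 UMIs (adjusted p = 0.16). Ccr2 was at -0.09 ± 0.05. Of 7 patrolling monocyte genes, 0 passed by edgeR, with Nr4a1 at -0.17 ± 0.07 and Spn at -0.32 ± 0.15. At 3000 UMIs Nr4a1 passed as lower (-0.56, adjusted p = 0.00268).

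Neutrophil-like monocyte genes were lower, with 4 lower and 0 higher of 6. S100a8, a subunit of the alarmin calprotectin, was at 266 and 1332 CPM in interferon-state and other cells of knockout 4, 294 and 539 CPM in control 1, and 138 and 261 CPM in control 3 (-1.30 ± 0.16, adjusted p = 8.77e-06). Its partner S100a9 was at 10.5 and 245 CPM, 24.0 and 79.5 CPM, and 4.34 and 42.9 CPM in the same order (-2.80 ± 0.22, adjusted p = 2.47e-08). Interferon-state cells were below other cells in all 3 libraries for both genes. The granule genes Lcn2 (-0.74 ± 0.08) and Prtn3 (-0.83 ± 0.13) were also lower. DESeq2 gave S100a8 an adjusted p of 0.0685, and at 3000 UMIs Prtn3 stood at -0.0496 (adjusted p = 0.981).

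Chemokines and repair genes were mixed. Of 18 cytokine and chemokine genes, 5 were higher and 2 lower. Ccl4, a chemokine gene, was at 515 and 343 CPM in interferon-state and other cells of knockout 4, 849 and 373 CPM in control 1, and 524 and 313 CPM in control 3 (0.85 ± 0.08, adjusted p = 2.85e-07). The monocyte attractants Ccl7 (0.52 ± 0.08) and Ccl2 (0.27 ± 0.05) were also higher, while Ccl24, an eosinophil attractant, was lower (-0.96 ± 0.19, adjusted p = 0.00239). Ccl24 was at 167 and 805 CPM in interferon-state and other cells of knockout 4, 212 and 317 CPM in control 1, and 131 and 173 CPM in control 3, and DESeq2 gave it an adjusted p of 0.64. Of 12 repair and lipid genes, 3 were higher and 1 lower. Lpl, the lipoprotein lipase gene, stood at 0.67 ± 0.10, and Arg1, the arginine-degrading enzyme of wound-healing macrophages, at -0.85 ± 0.06 (adjusted p = 7.62e-09). Arg1 was at 803 and 1568 CPM in interferon-state and other cells of knockout 4, 219 and 367 CPM in control 1, and 75.9 and 134 CPM in control 3. The knockout library was above both controls in either kind of cell, and within each library Arg1 was lower in the interferon state.

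Housekeeping lists gave few calls. Of 13 oxidative phosphorylation genes and of 14 cytosolic ribosomal protein genes, 0 passed by edgeR. Of 16 glycolysis and hypoxia genes, 3 were lower, led by Egln3 (-1.13 ± 0.20, adjusted p = 0.00096), and 0 of 16 passed at 3000 UMIs per cell. The median share of mitochondrial UMIs was 0.973% in interferon-state cells and 1.10% in other cells of knockout 4, 0.947% and 1.04% in control 1, and 0.969% and 1.03% in control 3. Of 15 cell death genes, 2 were higher: Mlkl, the executor of necroptosis (0.80 ± 0.18), and Casp8 (0.31 ± 0.08), which passed neither by DESeq2 nor at 3000 UMIs. Mlkl can belong to the response the rule selects, so its value is a description.

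**Figure D4:**
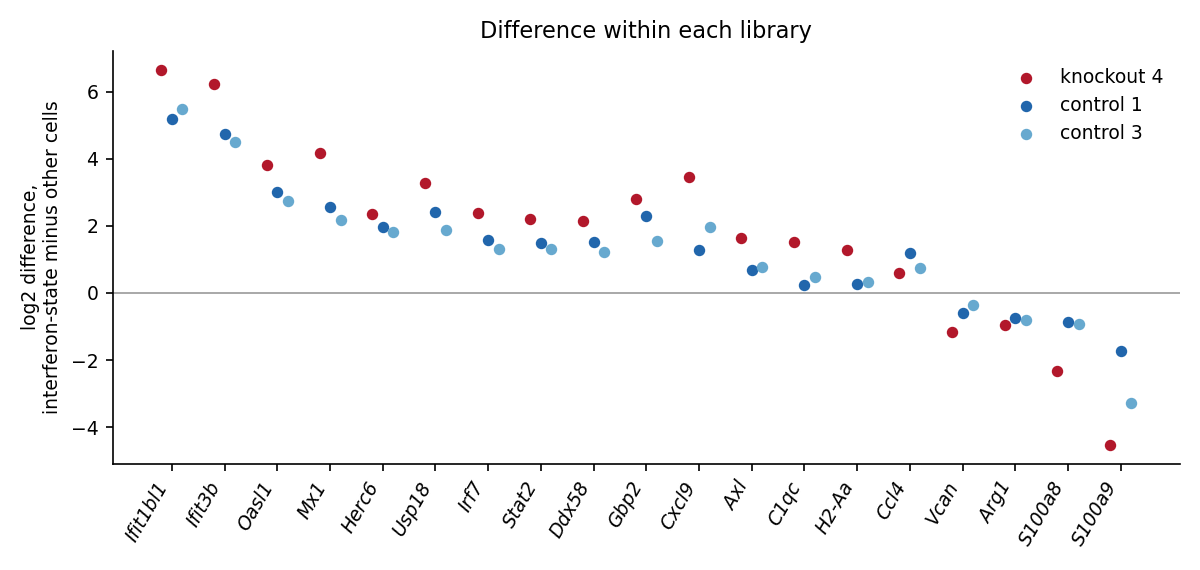
Log2 difference of interferon-state minus other cells (vertical axis) within each library for 19 genes, 1 point per library. Oasl1, Mx1, Usp18 and Irf7 are above 0 and S100a8, S100a9, Arg1 and Vcan below 0 in knockout 4, control 1 and control 3 alike.

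Markers of other cell types were low in part. The T cell, NK cell, dendritic cell and Kupffer cell lists summed to at most 5.82 CPM in interferon-state cells of each library. The neutrophil list summed to 137 and 180 CPM in interferon-state and other cells of knockout 4, 114 and 149 CPM in control 1, and 160 and 191 CPM in control 3. In the same order the B cell list summed to 26.8 and 32.4 CPM, 40.3 and 56.8 CPM, and 44.0 and 50.2 CPM. The hepatocyte list summed to 68.7 and 40.8 CPM, 32.4 and 32.0 CPM, and 80.4 and 89.2 CPM. The platelet list summed to 310 and 378 CPM in interferon-state and other cells of knockout 4, 202 and 165 CPM in control 1, and 164 and 127 CPM in control 3. The plasmacytoid dendritic cell list summed to 614 and 273 CPM, 463 and 277 CPM, and 455 and 296 CPM in the same order. Interferon-state cells with UMIs of at least 2 neutrophil markers numbered 7 of 405 in control 3, with no such cell in control 1 or knockout 4. The pan-myeloid genes Csf1r (0.15 ± 0.05) and Cd68 (0.14 ± 0.05) did not differ past the threshold, and Lyz2 was slightly lower (-0.13 ± 0.03, adjusted p = 0.00449; 0.736 by DESeq2). The plasmacytoid dendritic cell list had 2 genes tested, Bst2 (0.91 ± 0.09) and Tcf4 (0.45 ± 0.08), both higher. Bst2 is also an antiviral effector. It held 450 of the list's 527 UMIs in interferon-state cells of knockout 4, 998 of 1242 in control 1 and 2578 of 3147 in control 3. Siglech and Klk1 of the same list had 0 UMIs in interferon-state cells of each library. Of 4 erythroid genes, 4 were lower, led by Hbb-bs, which was at 2.34 and 16.7 CPM in interferon-state and other cells of knockout 4, 0 and 21.6 CPM in control 1, and 0.723 and 35.8 CPM in control 3. The immunoglobulin gene Igkc had the largest fall among genes averaging 20 CPM or more outside the interferon lists (-5.01 ± 0.21, adjusted p = 1.41e-12), with 0 CPM in interferon-state cells and 6.87 CPM in other cells of knockout 4, 6.28 and 93.7 CPM in control 1, and 2.17 and 116 CPM in control 3. Without cells that met the lymphocyte or neutrophil marker rule, Igkc stood at -0.38 (adjusted p = 0.693).

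Between genotypes, Arg1, Spp1, Cxcl3 and Cd9 were higher and Cxcl9 lower in interferon-state cells of knockout 4 than of both controls, by edgeR at full depth and at 3000 UMIs per cell. Of these 5 genes, DESeq2 called Spp1. Commd10 itself had 6 UMIs (7.16 CPM) in interferon-state cells of knockout 4, against 43 UMIs (15.9 CPM) in control 1 and 75 UMIs (10.8 CPM) in control 3. The log2 difference of -0.84 ± 0.61 did not pass the threshold in edgeR's quasi-likelihood test. In this and the other genotype tests by edgeR the spread was pooled over genes. A gene's error and p-value thus do not follow its own difference between the controls. Which exons are deleted is not stated, so whether 3′ reads of this gene check the deletion was not tested.

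Each selecting gene was higher in knockout 4 than in either control within these cells, as a description: Cxcl10 was at 2044 CPM in knockout 4, 728 CPM in control 1 and 483 CPM in control 3 when scaled over interferon-state sums, and Ifit1 at 714, 248 and 178 CPM. The rule asks for UMIs of 4 genes whatever the depth of a cell. Interferon-state cells had a median of 8112 UMIs in knockout 4, 11511 in control 1 and 13514 in control 3. Whether depth gave the higher levels was not tested. At 3000 UMIs per cell the median log2 difference of the 6 genes between genotypes was 0.19, against 1.30 at full depth. Thinning also applied the rule again, leaving 49 cells in knockout 4, 44 in control 1 and 102 in control 3.

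Across all genes, edgeR called 161 of 9879 tested (1.63%) between interferon-state cells of knockout 4 and of the controls, 123 higher (1.25%) and 38 lower (0.385%). Knockout 4 lay outside both controls in 159 of the 161, and in 7623 of 9885 genes (77.1%) with the selecting genes included. The comparison rests on 1 knockout library, which was assumed to vary like the controls, and the count moved with the test and with the cells used: 16 by DESeq2, of which 15 were higher, 15 at 3000 UMIs per cell, 20 without cells of the lymphocyte or neutrophil rule and 42 without cells of over 2 times the median UMI count. With 5 or more selecting genes required, edgeR called 0 of 8431 genes, 620 of them with an unadjusted p under 0.05.

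Of 12 repair and lipid genes, 5 were higher and 0 lower at full depth, and 3 of 10 were higher at 3000 UMIs, namely Arg1, Spp1 and Cd9. Arg1 was at 819 CPM in interferon-state cells of knockout 4, 219 CPM in control 1 and 75.8 CPM in control 3 (log2 2.51 ± 0.17, adjusted p = 1.64e-42), and at 3000 UMIs the difference was 2.86 (adjusted p = 2.36e-14). DESeq2 gave it 2.49 with an adjusted p of 0.665. Spp1 (osteopontin, a matrix and cytokine-like protein of repair macrophages) was at 1488, 523 and 397 CPM in knockout 4, control 1 and control 3 (1.70 ± 0.16, adjusted p = 2.95e-22), and passed at 3000 UMIs (1.57, adjusted p = 0.000159) and by DESeq2 (adjusted p = 5.55e-07). The neutrophil attractant Cxcl3, of the cytokine list, was at 99.1, 11.8 and 5.05 CPM (3.73 ± 0.30), and the tetraspanin gene Cd9 at 497, 263 and 115 CPM (1.41 ± 0.18). Both passed at 3000 UMIs, with 4.86 (adjusted p = 0.0296) and 1.45 (adjusted p = 0.00439). DESeq2 gave Cd9 an adjusted p of 0.9996 and Cxcl3 none. Cd36, a lipid uptake receptor of the repair list, passed at full depth (0.80, adjusted p = 0.0115) and stood at -0.14 at 3000 UMIs (adjusted p = 0.995).

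Ifitm1, an antiviral membrane protein, was at 78.8 CPM in knockout 4, 22.5 CPM in control 1 and 20.8 CPM in control 3 (1.87 ± 0.27, adjusted p = 6.85e-09), and Srgn, a granule proteoglycan gene, at 2995, 1483 and 1541 CPM (0.99 ± 0.15, adjusted p = 6.83e-08). Both also passed at 3000 UMIs. The interleukin 1 antagonist Il1rn (1.32 ± 0.19) and the lipid droplet gene Hilpda (1.73 ± 0.26) were higher at full depth. Hilpda belongs to the glycolysis and hypoxia list, of which 7 of 16 were higher and 0 lower, with 0 of 12 past the threshold at 3000 UMIs.

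Complement and class II genes passed at full depth but not at 3000 UMIs, where the rule had been applied again and 3003 genes were tested. C1qa was at 648 CPM in knockout 4, 241 CPM in control 1 and 275 CPM in control 3 (1.33 ± 0.17, adjusted p = 2.3e-11), and H2-Eb1 at 734, 296 and 370 CPM (1.14 ± 0.17, adjusted p = 1.66e-08). At 3000 UMIs C1qa stood at 0.25 and H2-Eb1 at -0.70, and 0 of 8 class II genes passed, against 4 of 8 higher at full depth. The antiviral effectors went the same way: 23 of 59 were higher in knockout 4 at full depth, with a median of 0.62 on the log2 scale, and 0 of 54 at 3000 UMIs, with a median of 0.01. Mx1 was at 191 CPM in knockout 4, 82.0 CPM in control 1 and 74.2 CPM in control 3 at full depth (1.30 ± 0.21, adjusted p = 2.82e-07) and stood at 0.36 at 3000 UMIs (adjusted p = 0.995). Median log2 differences over all tested genes were -0.02 at either depth.

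At full depth Cxcl9 went against its list. It was at 10.7 CPM in interferon-state cells of knockout 4, 49.9 CPM in control 1 and 84.0 CPM in control 3 (-2.67 ± 0.38, adjusted p = 2.34e-09), and it stayed lower at 3000 UMIs (-2.92, adjusted p = 4.5e-05). Other genes of the list, the GTPases Irgm1 (1.09 ± 0.20, adjusted p = 1.14e-05) and Ifi47 (0.88 ± 0.18) and the chemokine Cxcl11 (2.16 ± 0.48, adjusted p = 0.00115), were higher at full depth. Cxcl11 was at 27.5 CPM in knockout 4, 8.499 CPM in control 1 and 4.76 CPM in control 3, the reverse order of Cxcl9. At 3000 UMIs Irgm1 stood at 0.45 and Ifi47 at 0.07, and neither passed.

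Among other lower genes, the transcription factor Cebpb was at 229 CPM in knockout 4, 1128 CPM in control 1 and 389 CPM in control 3 (-1.72 ± 0.19, adjusted p = 2.02e-15). The controls differed from each other by more than knockout 4 from control 3, and DESeq2 did not call Cebpb. At 3000 UMIs Cebpb stayed lower (-1.95). Lyz2 was at 6263, 13839 and 10583 CPM in knockout 4, control 1 and control 3 (-0.96 ± 0.15, adjusted p = 1.27e-07). The Cre allele of these mice sits in the Lyz2 locus. Lyz1 was at 21.5, 2.96 and 167 CPM, so that knockout 4 lay between the controls, and without control 3 its sign turned (2.83). Lyz1 and Lyz2 are close copies that can share reads. Nrp1 (-1.38 ± 0.27), Tnfaip2 (-1.21 ± 0.23) and the eosinophil-type ribonuclease gene Ear2 (-1.09 ± 0.25) were lower in knockout 4 than in both controls. At 3000 UMIs Lyz2 (adjusted p = 0.435), Tnfaip2 (adjusted p = 0.0655), Nrp1 and Ear2 did not pass.

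**Figure D5:**
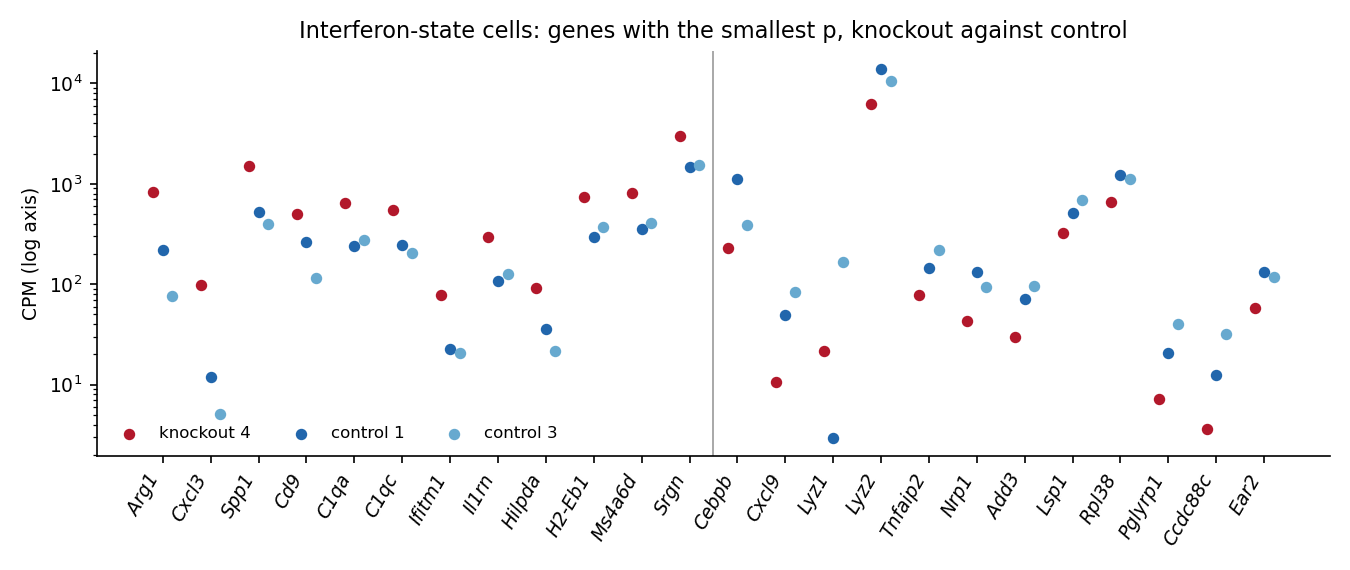
Level in interferon-state cells (vertical axis, CPM, log scale) of the 12 genes with the smallest p in each direction, 1 point per library, higher in knockout left of the line and lower right of it. Arg1 (819 CPM in knockout 4) lies above control 1 (219 CPM) and control 3 (75.8 CPM), Cxcl9 (10.7 CPM) lies below both, and Lyz1 (21.5 CPM) lies between them.

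Whether the knockout effect was the same inside and outside the interferon state was tested as an interaction in edgeR. Of 12638 genes, 382 passed (3.02%), 186 with a higher (1.47%) and 196 with a lower (1.55%) effect in interferon-state cells. The antiviral effectors had a higher effect in 45 of 60 (median 0.62 on the log2 scale) and class II genes in 7 of 9 (median 0.75). At 3000 UMIs per cell 6 of 10400 genes passed, 0 higher and 6 lower, with 0 of 60 antiviral effectors (median 0.11) and 0 of 9 class II genes (median -0.37). DESeq2 called 25 genes, 18 higher and 7 lower, and edgeR with library totals in place of TMM called 169 higher and 118 lower.

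S100a8 was the one of the 5 genes with the smallest p that passed at both depths. Its level was 266 CPM in interferon-state cells and 1332 CPM in other cells of knockout 4, 294 and 539 CPM in control 1, and 138 and 261 CPM in control 3. The knockout effect was lower in interferon-state cells by 1.43 ± 0.09 on the log2 scale (adjusted p = 1.41e-50), and by 1.36 at 3000 UMIs (adjusted p = 0.0275). Ccl24 was at 167 and 805 CPM, 212 and 317 CPM, and 131 and 173 CPM in the same order, an effect lower by 1.78 ± 0.11 at full depth that did not pass at 3000 UMIs (-0.95, adjusted p = 0.992). In both genes the other cells of knockout 4 held the highest level of any group. Few interferon-state cells carried 2 or more genes of the S100a8 marker set. They were 3.00% of these cells and 7.64% of other cells in knockout 4, 2.79% and 4.42% in control 1, and 1.98% and 2.07% in control 3. At 3000 UMIs they were 1 of 49 interferon-state cells in knockout 4, 1 of 44 in control 1 and 0 of 102 in control 3. Whether the S100a8 interaction follows the number of such cells was not tested. The errors and p-values of the interaction rest on 1 knockout library and 1 residual degree of freedom, with the spread pooled over genes. Spread between knockout libraries was not measured, so they do not cover it.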

How the data were processed

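The deposited values are UMI counts per gene and cell barcode, made by the authors with Cell Ranger 3.0.2 after bcl2fastq on GRCm38, per the submitters' processing notes. Reads were 3′ tags from droplets, per the labels. From these counts, barcodes were kept from 500 genes up and with no more than 10% mitochondrial UMIs, and doublets were not removed. Thinning drew UMIs without replacement, and the rule was then applied again. Counts were summed per library over interferon-state and other cells and fitted with edgeR 4.0.16 in R 4.3.3 (TMM, filterByExpr, two-sided quasi-likelihood test, threshold 0.05 after Benjamini-Hochberg adjustment). Levels are CPM over TMM-scaled totals, or over plain totals for lists and subsets of cells. Residual degrees of freedom were 2 for interferon-state against other cells and 1 for the genotype and interaction tests. For the genotype and interaction tests edgeR pooled the spread over genes. Coordinates are from GENCODE M21.

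Both sums of a library were blocked on the library, since they come from the same suspension. DESeq2 1.42.0, other scalings and filters, other cell sets and libraries left out were tried as alternatives. The cell rule, lists and tests were chosen with earlier results of these data known. Named were the selecting genes, up to 4 genes of each list with the smallest p (any of the interferon lists), the 10 largest changes each way outside those lists (20 CPM or more, same direction in all libraries), the 12 smallest p each way between genotypes and the 5 smallest for the interaction. On simulated counts with 200 changed genes a run, edgeR found 100% of genes changed by 2 log2 units for interferon-state against other cells (12644 genes), 93.6% between genotypes (9885 genes) and 97.1% for the interaction (12644 genes). Of genes changed by 1 log2 unit it found 100%, 43.4% and 70.9% in the same comparisons, with 4.21%, 4.87% and 4.12% of calls false. The simulated counts were drawn from edgeR's own fitted means and dispersions, and the cell rule was not applied to them. These shares thus do not cover error from the rule, from depth, from the make-up of the cells or from spread between knockout libraries.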

Additional observations from a re-analysis of the deposited data

Results flagged for a closer look

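The difference of the knockout effect between interferon-state and other cells, tested as an interaction in edgeR, stood out for 5 genes at full depth. It was -1.78 for Ccl24 and -1.43 for S100a8 on the log2 scale, so the knockout effect was lower inside the state. It was 0.75 for Cd74, 1.24 for H2-Eb1 and 0.97 for H2-Aa, so the knockout effect on these class II genes was higher inside the state. H2-Eb1 was at 720 CPM in interferon-state cells and 242 CPM in other cells of knockout 4, 296 and 220 CPM in control 1, and 370 and 307 CPM in control 3. Of the 5 genes, S100a8 also passed at 3000 UMIs per cell, and the 3 class II genes turned sign there.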

How the results depend on the processing

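The share of interferon-state cells followed the rule and the depth. With 3 or more selecting genes it was 4.78% in knockout 4, 10.3% in control 1 and 11.1% in control 3, with 5 or more 1.01%, 2.07% and 2.48%, and with all 6 genes 0.449%, 0.753% and 0.899% in these libraries. Thinned to 5000 UMIs it was 2.13% in control 1 and 2.49% in control 3, to 3000 UMIs 1.32% in knockout 4, 1.23% in control 1 and 1.51% in control 3, and to 2000 UMIs 1.01%, 0.969% and 0.900% in knockout 4, control 1 and control 3. Without cells of over 2 times the median UMI count it was 2.18% in knockout 4 (1.77 to 2.66), 3.39% in control 1 and 3.68% in control 3.

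Of genes that differed between interferon-state and other cells, 620 at full depth became 387 with DESeq2, 396 at 3000 UMIs and 384 against other cells matched on total UMIs, of which 371 were among the 620. Leaving out 1 library gave 409 to 1059. The cause of these shifts was not tested. The 2 sums of a library were paired through the library, and without this block 141 genes passed, 137 higher and 4 lower. Between genotypes, 161 became 16 with DESeq2, 15 at 3000 UMIs, 0 with 5 or more selecting genes, 20 without cells of the lymphocyte or neutrophil rule and 42 without cells of high UMI count. The interaction's 382 became 25, 6, 174, 227 and 110 under the same changes. With library totals in place of TMM, 58.9% of its calls were higher, against 48.7%. No paired analysis was possible for the genotypes because the labels' numbers 4, 1 and 3 are shared by no 2 groups. Leaving out a control leaves 1 library against 1, with values and no test.

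At 3000 UMIs, the sign turned between interferon-state and other cells for Ifitm1 (0.0202), Pf4 (-1.21) and Ly6c2 (0.48), and with 5 or more selecting genes for Gpnmb (-0.0384). It turned between genotypes for Ifih1 (-0.37), Isg20 (-0.22), H2-Eb1 (-0.70), H2-Aa (-0.35), H2-Ab1 (-0.50), Cd74 (-0.39), C1qb (-0.15), Nr4a1 (0.11), Ccl7 (-0.20), Ccl2 (-0.13) and Cd36 (-0.14), and in the interaction for Cd74 (-0.37), H2-Eb1 (-0.46) and H2-Aa (-0.26). With a control left out, the genotype difference was -1.83 to 1.21 for Hspa1a and -2.95 to 2.83 for Lyz1, positive without control 3.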

Other observations

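Interferon-state cells were found among cells of several marker sets. At 3000 UMIs per cell, cells with at least 2 of C1qa, C1qb and C1qc were 30.6% of interferon-state cells and 15.7% of other cells in knockout 4, 20.5% and 20.9% in control 1, and 30.4% and 16.6% in control 3. Cells with a Vcan UMI were 32.7% of interferon-state cells and 45.8% of other cells in knockout 4, 20.5% and 26.9% in control 1, and 36.3% and 49.0% in control 3. The interferon-state cells behind these shares numbered 49 in knockout 4, 44 in control 1 and 102 in control 3.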
